A study of Mus musculus with 12 samples.

Results

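The zinc finger proteins that mouse nomenclature names only by a number (Zfp1, Zfp101, Zfp871 and so on) were followed through 12 poly(A) RNA libraries. A gene was taken as a member when its Ensembl ID mapped to the symbol Zfp followed by digits alone (Zfp36, an mRNA-decay factor of another family, was left out) and when it had at least 10 read counts in each of the 12 libraries. This gave 225 members, out of 373 numbered Zfp genes and 49022 genes that the liver and macrophage tables shared. The treated samples were livers of C57BL/6 mice taken 2 h after LPS, bacterial lipopolysaccharide, which activates toll-like receptor 4, and they were compared with livers of untreated C57BL/6 mice. Peritoneal macrophages of C57BL/6 mice, the phagocytes of the abdominal cavity, had been infected with a lentivirus for 72 h, followed by 2 h of LPS. In the knockdown group the virus carried a short hairpin RNA (shGm26917) that targets Gm26917, a long non-coding RNA, and in the comparison group it carried the negative control hairpin (shNC). Every macrophage library was thus from LPS-treated cells, and no unstimulated macrophages were analysed here. Each group had 3 libraries. Nothing in the labels says whether these came from separate mice or cultures, so the p-values measure the spread between these libraries. No age is given in the labels, which also do not say how many hairpin sequences were used.

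C2H2 zinc finger proteins form the most numerous class of mammalian transcription factors. A finger is a short peptide fold in which a pair of cysteines and a pair of histidines hold a zinc ion, and fingers in tandem read successive bases of DNA. Many members carry a KRAB domain near the amino terminus, which recruits the corepressor Trim28 and, through it, the histone methyltransferase Setdb1 and heterochromatin proteins, and is best known for the silencing of retroelements. Members without KRAB domains have diverse roles as activators, RNA-binding proteins, ubiquitin ligases and parts of chromatin complexes. Many KRAB zinc finger genes have no role described in liver or macrophages.

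The fold that defines the family is shown by a stretch of Zfp871, the member with the largest fall in liver. The stretch is 147 coding bases that begin at coding base 583 of the GENCODE M21 coding sequence (gene at chr17:32765496-32788287, GRCm38, minus strand; the sequence is written 5′ to 3′ in the sense of the mRNA). Capitals mark the codons of the cysteines and histidines of 2 successive fingers.
Zfp871: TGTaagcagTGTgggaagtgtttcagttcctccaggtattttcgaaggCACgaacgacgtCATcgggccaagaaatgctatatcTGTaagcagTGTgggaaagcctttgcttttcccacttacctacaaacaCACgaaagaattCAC
The translated coding sequences were searched for such fingers, allowing this spacing or a somewhat wider one within each pair. The search found a median of 10 fingers per member and a maximum of 36, and 4 members had no match, among them Zfp503 and Zfp703. A KRAB A box pattern was found in 116 members and not in 107, and 2 members had no coding sequence to search. Members with the KRAB pattern had a median of 12 fingers and those without it 7. The linker that commonly joins fingers in tandem was present at least once in 173 members. Members were clustered in the genome: 54 of the 225 lay on chromosome 7 and 30 on chromosome 17. A total of 30 members shared over 10% of their 50-base transcript windows with other genes, 57 overlapped an exon of a gene on the other strand, and 20 overlapped one on the same strand. The sources used here do not say how reads at such places were assigned, so the counts of those members are uncertain.

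Promoter sequences of RefSeq (GRCm38.p6, 250 bases before to 50 bases after the start) matched 190 members by symbol. The motif CCGGAAG of ETS-family factors, searched on both strands, was present in 20.5% of these and in 9.12% of all 27025 promoters in the table. ACTACAA, part of the binding motif of Zfp143, which is itself a member, was present in 7.89% of member promoters and 3.45% of all promoters, and AAGATGGC, the YY1 motif, in 5.79% and 2.88%. The box TATAAA was present in 4.74% of member promoters and 14.2% of all. An NF-kB-like motif (GGGAA, any 3 bases, CC) was found in 9.47% of member promoters and 5.67% of all, and an interferon response motif (TTTC, any 2 bases, TTTC) in 2.63% and 3.49%. By direction in liver, CCGGAAG was in 5 of 26 promoters of members called higher and in 11 of 67 promoters of members called lower, and ACTACAA in 4 of 26 and 4 of 67. The 27025 promoters were not limited to genes with the members' count minimum, and no share over other genes with that minimum was computed. These differences can thus not be ascribed to the family. A motif match describes the letters in the window and not binding. The promoters shown are those of the members with the largest called rise and the largest called fall in liver that carry CCGGAAG (Zfp945 at chr17:22867085-22867384, minus strand, and Zfp316 at chr5:143269973-143270272, minus strand) and that carry ACTACAA (Zfp697 at chr3:98382231-98382530, plus strand, and Zfp169 at chr13:48513387-48513686, minus strand). Capitals mark the matches on either strand: CCGGAAG or its reverse complement in Zfp945 and Zfp316, ACTACAA or its reverse complement in Zfp697 and Zfp169, and in Zfp169 also a match to the interferon response motif.
Zfp945: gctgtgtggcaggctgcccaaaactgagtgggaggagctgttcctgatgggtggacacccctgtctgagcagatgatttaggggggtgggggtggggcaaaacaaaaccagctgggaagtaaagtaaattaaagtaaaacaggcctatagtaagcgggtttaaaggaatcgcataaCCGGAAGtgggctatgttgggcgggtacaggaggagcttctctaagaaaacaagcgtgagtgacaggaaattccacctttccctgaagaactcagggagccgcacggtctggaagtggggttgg
Zfp316: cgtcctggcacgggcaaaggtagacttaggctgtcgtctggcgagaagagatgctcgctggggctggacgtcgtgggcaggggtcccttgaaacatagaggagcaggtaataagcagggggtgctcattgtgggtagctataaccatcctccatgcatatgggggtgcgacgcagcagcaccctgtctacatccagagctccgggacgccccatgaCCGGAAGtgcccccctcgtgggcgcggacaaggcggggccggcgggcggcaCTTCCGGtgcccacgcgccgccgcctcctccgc
Zfp697: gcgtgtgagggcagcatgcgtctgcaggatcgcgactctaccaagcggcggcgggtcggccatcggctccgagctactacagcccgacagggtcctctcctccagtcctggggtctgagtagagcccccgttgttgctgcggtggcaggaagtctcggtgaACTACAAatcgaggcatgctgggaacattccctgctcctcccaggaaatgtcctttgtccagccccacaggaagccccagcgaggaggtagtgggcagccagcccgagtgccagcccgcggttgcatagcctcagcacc
Zfp169: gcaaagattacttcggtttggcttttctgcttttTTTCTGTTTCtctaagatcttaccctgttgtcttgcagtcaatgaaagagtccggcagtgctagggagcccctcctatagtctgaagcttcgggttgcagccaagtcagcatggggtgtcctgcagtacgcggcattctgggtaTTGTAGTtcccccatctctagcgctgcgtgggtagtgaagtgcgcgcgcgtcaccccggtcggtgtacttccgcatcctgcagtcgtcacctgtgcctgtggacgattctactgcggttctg
For each motif the promoters shown were picked from both directions of change in liver, so their presence in both follows from that choice.

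Libraries held 15605311 to 20913964 counts. Within groups, shNC replicate 2 stood apart from the other shNC libraries (chi-square per gene of 211 and 251, against 30.7 between the others), as did untreated replicate 3 among untreated livers (207 and 183, against 90.2). LPS replicate 1 likewise stood apart among LPS livers (84.7 and 78.6, against 22.8). Gm26917 had 479.7, 219.9 and 338 CPM in LPS livers, against 84.8, 234 and 159.5 CPM in untreated livers, and it was not analysed here in macrophages, so the effect of the hairpin on its target was not checked. In liver, all 6 neutrophil markers that were tested were higher, with a summed level of 214 to 298 CPM in LPS livers and 2.55 to 8.03 CPM in untreated livers, and Ly6g, listed but not tested, was at 0 in the untreated livers. Hepatocyte markers summed to 74000 to 113100 CPM in LPS livers and 80970 to 126300 CPM in untreated livers, with 2 of 8 called higher, and 4 of 5 erythroid markers were called higher. Of 6 endothelial markers 3 were called higher and 2 lower, with a sum of 156 to 172 CPM in LPS livers and 109 to 170 CPM in untreated livers. Of 7 macrophage markers 2 were called higher, as were 2 of 7 T and NK cell markers, and 1 of 5 B cell markers was called lower. In the macrophage libraries 3 of 7 macrophage markers were called higher with shGm26917, with a sum of 16560 to 25890 CPM against 9039 to 11370 CPM with shNC. Lyz2 was the largest term of that sum, with means of 14960 CPM with shGm26917 and 5350 CPM with shNC. Csf1r and Cd68 were also called higher, and Itgam and Mertk were higher without a call. Adgre1 (means of 1264 and 1521 CPM) and Fcgr1 (38.05 and 381.7 CPM) had lower means without a call. The shNC mean of Fcgr1 rests on replicate 2: its libraries had 6.70, 1115 and 23.5 CPM with shNC, against 41.85, 54.1 and 18.2 CPM with shGm26917. For Adgre1, too, shNC replicate 2 was the highest library, at 2092 CPM. B cell markers summed to 117 to 285 CPM with shGm26917 and 192 to 606 CPM with shNC. The part of these marker changes in the results on the members was not tested, and in bulk RNA fewer cells of a type cannot be told apart from less RNA per cell.

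Members were transcripts of low abundance. Levels are given in CPM on library sizes scaled by TMM, a scaling that assumes most genes do not change. The median member had a mean of 4.61 CPM in LPS livers and 5.90 CPM in untreated livers, and 13.1 CPM in shGm26917 macrophages and 12.5 CPM in shNC macrophages. Per kilobase of exon, Zfp598, a ubiquitin ligase that marks collided ribosomes, was the most abundant member in LPS livers at 53.3 ± 17.5 CPM per kb (SD, n = 3), and the next was Zfp706 at 17.9 ± 0.82 CPM per kb. In untreated livers Zfp706 came first at 17.7 ± 2.6 CPM per kb, followed by Zfp395 at 9.88 ± 1.1 and Zfp598 at 9.70 ± 2.0 CPM per kb. The levels of Zfp395, Zfp598 and Zfp91 (9.31 ± 1.0 CPM per kb) in untreated livers did not differ beyond their spread. Zfp703, a corepressor studied in breast cancer, led in shGm26917 macrophages at 31.4 ± 3.4 CPM per kb, against 17.4 ± 2.2 CPM per kb with shNC. Zfp207, which binds the spindle checkpoint protein Bub3, led in shNC macrophages at 30.8 ± 4.3 CPM per kb and came second with shGm26917 at 21.9 ± 0.57 CPM per kb. Members with the KRAB pattern had lower levels than those without it: their medians per kb were 0.950 and 1.78 CPM in untreated livers and 1.49 and 4.05 CPM in shNC macrophages.

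In liver the members leaned towards lower levels after LPS. A gene counted as called when its p-value from the quasi-likelihood test of edgeR, adjusted by Benjamini-Hochberg over the 13869 genes tested, was under 0.05. By that rule 27 members were higher in LPS livers, which is 12%, and 79 were lower, which is 35.1%, while over all genes tested 23.3% were called higher and 22.1% lower (45.3% in either direction). The median log2 fold change (LPS minus untreated) was -0.43 for members and -0.056 for all genes tested. Among members 64.0% had groups that did not overlap, with 17.3% higher and 46.7% lower, and among all genes tested the share was 57.8%, with 29.4% higher and 28.4% lower. The members were chosen by their read counts in these same libraries, and 32 numbered Zfp genes missed the count minimum in LPS livers only, against 5 in untreated livers only, so the rule left out more genes that were low after LPS than genes that were low without it. Of all 286 numbered Zfp genes tested in liver, 34 were called higher and 112 lower, with a median of -0.48. Members just inside the minimum were Zfp458, Zfp503 and Zfp658, each with a lowest count of 10, and genes just outside were Zfp651, Zfp759 and Zfp59, each with a lowest count of 9.

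The scaling moved members and other genes alike. With library totals in place of TMM factors, 12 members were called higher and 124 lower with a median of -0.86, and over all genes tested the split became 14.0% higher and 38.3% lower with a median of -0.48. The members' median thus lay 0.376 below that of all genes tested with TMM and 0.379 below it with library totals. The TMM factors were 0.845 to 0.881 in LPS livers and 1.07 to 1.27 in untreated livers. Members took 0.169% to 0.207% of all counts in LPS livers and 0.231% to 0.294% in untreated livers, which did not overlap. On the TMM scale their summed level was 2351, 1957 and 2032 CPM in LPS livers, against 2314, 2167 and 2080 CPM in untreated livers, which did overlap. Genes of equal level were those with the same count minimum and a mean level between the members' quartiles, 3.11 to 11.7 CPM. Inside those limits 9.73% of 113 members were called higher and 32.7% lower, with a median of -0.39, and of the 2646 other genes 16.5% were called higher and 28.9% lower, with a median of -0.22. With library totals 3.54% of those members were called higher and 54.9% lower, and of the others 9.15% and 47.3%.

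**Figure D1:**
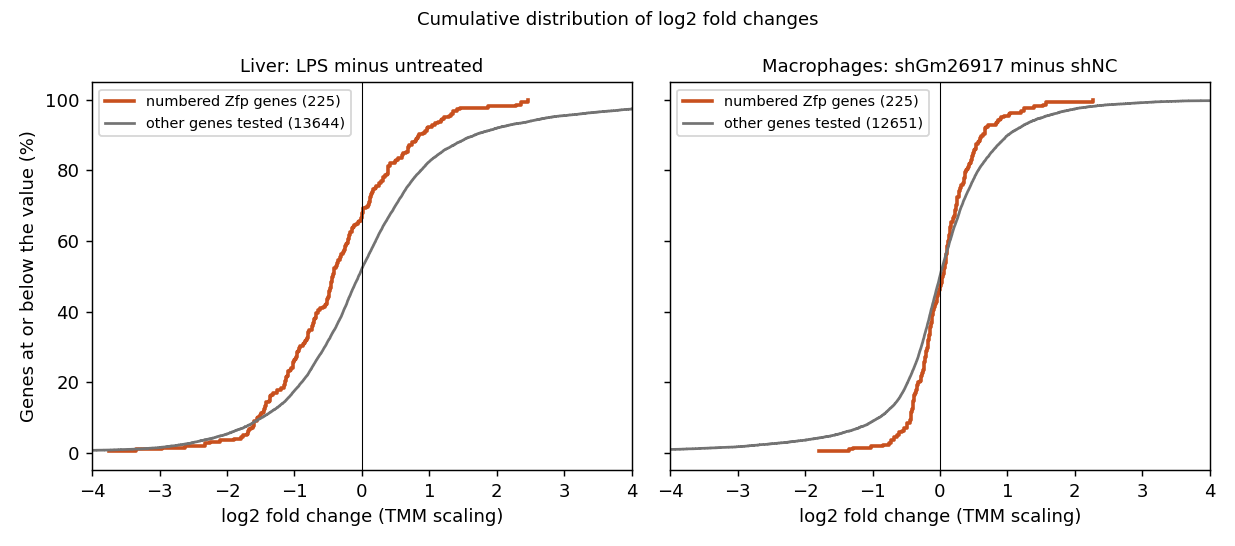
Cumulative share of genes (y axis, %) at or below each log2 fold change on TMM-scaled libraries (x axis, drawn from -4 to 4), for the 225 numbered Zfp genes (orange) and all other genes tested (grey), in liver (left) and macrophages (right). In liver the orange curve lies left of the grey one over most of the range, with medians of -0.43 for members and -0.056 for all genes tested; in macrophages the curves cross near 0 and the members' curve is the steeper.

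The largest falls in liver were those of Zfp871, Zfp395 and Zfp101. Zfp871, a KRAB zinc finger gene, had 1.44, 1.94 and 1.96 CPM in LPS livers, against 36.00, 13.2 and 23.4 CPM in untreated livers. All LPS livers lay below all untreated livers, 13.5-fold lower on average, with a log2 fold change of -3.76 ± 0.39 (SE) and adjusted p = 0.000131. Zfp395, whose human counterpart was isolated as a binder of the huntingtin promoter, had 7.15, 2.55 and 4.11 CPM in LPS livers, against 51.8, 41.5 and 46.98 CPM in untreated livers. Its groups were again apart, with a change of -3.35 ± 0.34 (SE) and adjusted p = 0.000131, and LPS replicate 1 was the least reduced. Zfp467, which favours fat over bone cell fate in mouse marrow progenitors, had 3.45, 2.66 and 2.85 CPM in LPS livers, against 15.5, 14.1 and 15.5 CPM in untreated livers. The untreated livers were close together, and the change was -2.33 ± 0.20 (SE) with adjusted p = 5.23e-05. Zfp101, a KRAB gene, had 0.690, 0.610 and 0.823 CPM in LPS livers, against 6.24, 6.81 and 3.60 CPM in untreated livers, a change of -2.96 ± 0.36 (SE) with adjusted p = 0.000313. Zfp316, whose promoter is printed above, had 1.00, 0.888 and 0.696 CPM in LPS livers, against 7.83, 4.68 and 3.56 CPM in untreated livers. Its change was -2.62 ± 0.38 (SE) with adjusted p = 0.000859, and the spread was wider among untreated than among LPS livers.

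The other falls that ranked among the first 10 were of similar form, with no overlap between groups. Zfp870, a neighbour of Zfp871, had 1.44, 1.66 and 1.20 CPM in LPS livers, against 6.01, 8.53 and 6.12 CPM in untreated livers (log2 change -2.25 ± 0.28 SE, adjusted p = 0.000369). Zfp760 had 1.19, 1.498 and 0.759 CPM in LPS livers, against 6.64, 7.28 and 3.60 CPM in untreated livers (log2 change -2.33 ± 0.38 SE, adjusted p = 0.00158). Both are KRAB genes of chromosome 17, and their highest LPS liver stood well below their lowest untreated liver. Zfp169 had 0.690, 0.943 and 0.823 CPM in LPS livers, against 4.73, 2.87 and 3.00 CPM in untreated livers (log2 change -2.10 ± 0.35 SE, adjusted p = 0.00169). Zfp953 had 1.19, 0.610 and 0.823 CPM in LPS livers, against 3.50, 3.66 and 2.60 CPM in untreated livers (log2 change -1.89 ± 0.36 SE, adjusted p = 0.00315), and its exons overlap other genes on the same strand, so its reads cannot be assigned to it alone. Zfp503, a developmental repressor related to Zfp703, had 0.940, 0.555 and 0.696 CPM in LPS livers, against 2.28, 1.72 and 3.65 CPM in untreated livers (log2 change -1.80 ± 0.42 SE, adjusted p = 0.0083). The last 3 genes had at most 1.19 CPM after LPS, and Zfp503 was among the members just inside the count minimum.

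Rises in liver were fewer, and the leading gene was the ribosome quality control ligase. Zfp598 had 284, 155 and 183 CPM in LPS livers, against 29.6, 38.5 and 45.2 CPM in untreated livers. Every LPS liver was above every untreated liver, 5.49-fold on average, with a log2 fold change of 2.46 ± 0.29 (SE) and adjusted p = 0.000261. Zfp945, a KRAB gene with 18 finger matches, had 48.3, 47.4 and 45.3 CPM in LPS livers, against 8.42, 8.67 and 10.3 CPM in untreated livers. The LPS livers were within a narrow range, and the change was 2.36 ± 0.17 (SE) with adjusted p = 1.75e-05. Zfp949, a KRAB gene of chromosome 9, had 46.1, 30.9 and 38.5 CPM in LPS livers, against 9.01, 7.88 and 6.90 CPM in untreated livers, a change of 2.28 ± 0.21 (SE) with adjusted p = 7.29e-05. Zfp697 had 13.5, 4.16 and 4.68 CPM in LPS livers, against 2.00, 1.11 and 1.22 CPM in untreated livers. LPS replicate 1 was well above the others here, the change of 2.36 ± 0.50 (SE, adjusted p = 0.00568) became 1.63 without that library, and exons of Zfp697 overlap Hsd3b2 and Hsd3b3 on the other strand. Zfp1, a KRAB gene, had 28.6, 12.8 and 15.1 CPM in LPS livers, against 4.42, 5.93 and 5.17 CPM in untreated livers, with LPS replicate 1 again the highest and a change of 1.86 ± 0.32 (SE, adjusted p = 0.00195).

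Known regulators were among the smaller rises. Zfp143, an activator bound at many promoters, had 12.6, 12.1 and 10.7 CPM in LPS livers, against 5.10, 5.05 and 3.78 CPM in untreated livers. Its groups did not overlap and its change was 1.35 ± 0.21 (SE) with adjusted p = 0.00128. Zfp217, a corepressor that acts with CtBP and is amplified in human cancers, had 36.3, 21.8 and 26.1 CPM in LPS livers, against 11.6, 10.8 and 10.5 CPM in untreated livers (log2 change 1.36 ± 0.22 SE, adjusted p = 0.00144). Zfp292, a large DNA-binding protein with 14 finger matches, had 80.9, 47.4 and 75.1 CPM in LPS livers, against 28.4, 21.8 and 31.1 CPM in untreated livers (log2 change 1.32 ± 0.24 SE, adjusted p = 0.00281). In both genes the lowest LPS liver was above the highest untreated liver. Zfp160 had 14.6, 20.3 and 16.1 CPM in LPS livers, against 7.55, 5.89 and 5.78 CPM in untreated livers (log2 change 1.41 ± 0.21 SE, adjusted p = 0.00103). Zfp976 had 6.96, 6.60 and 8.10 CPM in LPS livers, against 2.87, 2.27 and 2.78 CPM in untreated livers (log2 change 1.45 ± 0.23 SE, adjusted p = 0.00147). Both are KRAB genes with 18 finger matches. Zfp976 shares 21.0% of its windows with other genes, most of all Zfp975, so its reads may be split between near-copies. Each of these 20 calls in liver was kept in every one of 13 alternative fits.

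**Figure D2:**
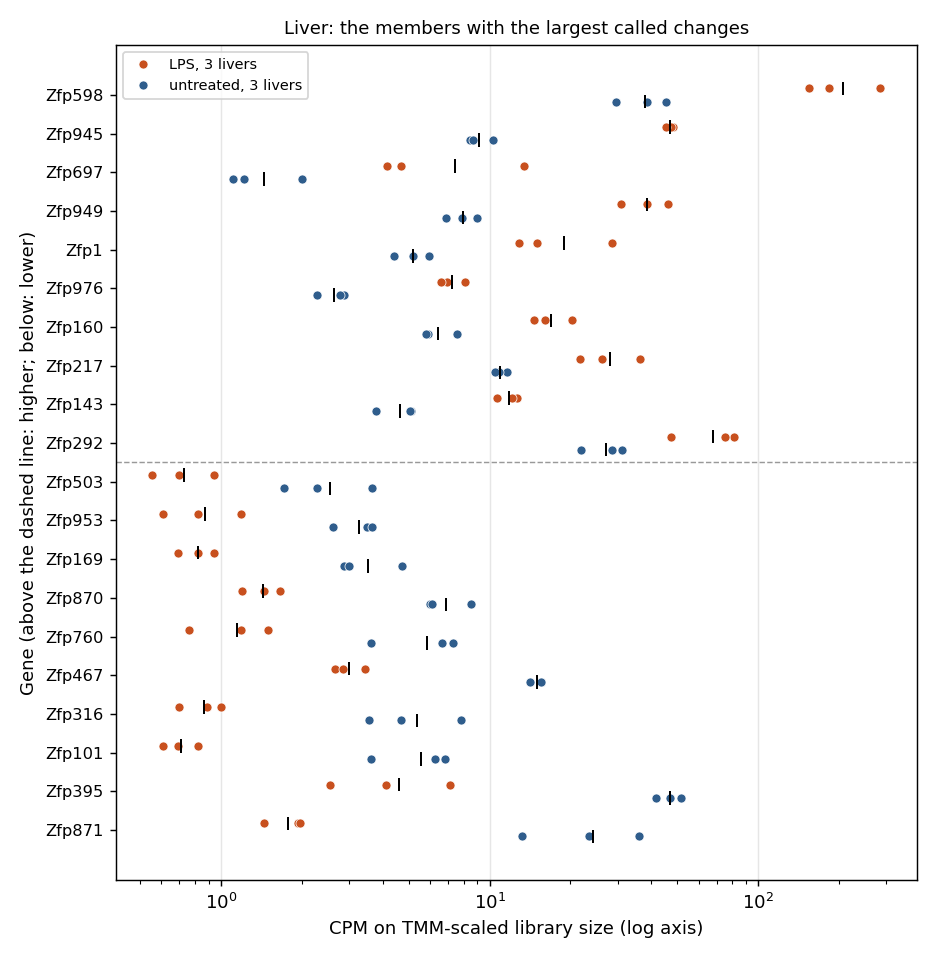
Level of the 10 members with the largest called rises (above the dashed line) and the 10 with the largest called falls (below it) in each liver library, in CPM on TMM-scaled library sizes (x axis, log scale); orange points are the 3 LPS livers, blue points the 3 untreated livers, and black ticks the group means. No gene shown has overlapping groups, and the largest rise is that of Zfp598, with means of 207 CPM in LPS and 37.8 CPM in untreated livers.

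Of 37 members with a described role, 9 (24.3%) were called higher and 8 (21.6%) lower in liver, with a median of 0.002. These shares are near the 23.3% and 22.1% of all genes tested, whose median was -0.056. The list was chosen with earlier results of these data known, its median level was higher than that of all members (3.75 against 2.49 on the log2 CPM scale), and its difference from the other members was not tested. Beside Zfp598, Zfp143, Zfp217 and Zfp292, the rises were in Zfp384, a DNA-binding protein studied in bone (0.91 ± 0.18 SE, adjusted p = 0.00355), Zfp131, Zfp263, Zfp281 and Zfp410. The falls included Zfp91, a ubiquitin ligase of the non-canonical NF-kB pathway. Zfp91 had 46.3, 52.4 and 54.4 CPM in LPS livers, against 89.5, 85.7 and 105 CPM in untreated livers, with a change of -0.87 ± 0.17 (SE) and adjusted p = 0.00405. Its groups were well apart. Zfp568, the KRAB repressor of a placental Igf2 transcript, had 3.20, 5.44 and 3.67 CPM in LPS livers, against 15.5, 9.73 and 12.2 CPM in untreated livers, with a change of -1.60 ± 0.28 (SE, adjusted p = 0.0021). Zfp318, which B cells need to express IgD, had 9.72, 6.44 and 5.76 CPM in LPS livers, against 20.7, 17.7 and 18.1 CPM in untreated livers (log2 change -1.37 ± 0.23 SE, adjusted p = 0.00189). Beside it, B cell markers summed to 6.83 to 10.2 CPM in LPS livers and 10.5 to 13.4 CPM in untreated livers, and their part was not tested. Zfp644, a partner of the histone methyltransferases G9a and GLP, fell by 1.01 on the log2 scale (SE 0.20, adjusted p = 0.00401), and Zfp148, Zfp512 and Zfp687 were also called lower. Among the members not called, Zfp809, which silences murine retroviruses in embryonic stem cells, was at 0.0018 ± 0.20 (SE, adjusted p = 0.995), Zfp638 at -0.44 ± 0.17 (SE, adjusted p = 0.0624) and Zfp445 at -0.33 ± 0.16 (SE, adjusted p = 0.132). With library totals, 4 of the 37 (10.8%) were called higher and 16 (43.2%) lower, beside 14.0% and 38.3% of all genes tested. The rises of Zfp384, Zfp131, Zfp263, Zfp281 and Zfp410 were then no longer called.

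Neighbouring members did not all move alike. Runs of at least 5 members with gaps under 500000 bases numbered 11. Their liver calls, not tested as groups, stand beside 23.3% higher and 22.1% lower over all genes tested. The run at chr17:32765496-33631779 held 8 members, of which 6 were called lower and 1 higher in liver, with a median log2 fold change of -1.61. Zfp871, Zfp870 and Zfp101 belong to it, together with Zfp799 (-1.65 ± 0.41 SE, adjusted p = 0.0118) and Zfp81 (-1.56 ± 0.33 SE, adjusted p = 0.00564). Within the same run Zfp952 was called higher (0.97 ± 0.22 SE, adjusted p = 0.00754) and Zfp472 was at 0.0074 ± 0.31 (SE, adjusted p = 0.988). The run at chr6:47835661-48623227 held 8 members, 5 of them called lower and none higher, with a median of -1.02, and Zfp467 is its largest fall. The longest run, 17 members at chr17:21008903-23564238 of which 16 have the KRAB pattern, had 2 called higher and 5 lower with a median of -0.32. It holds Zfp945 and Zfp760, near opposite ends of the order of changes. In the run of 11 KRAB genes at chr13:67194506-67755228, 1 was called higher and 1 lower. In macrophages 2 members of these 11 runs were called, Zfp948 and Zfp213, both lower, beside 12.6% higher and 11.1% lower over all genes tested. Members of a run can share sequence and reads, so they are not independent.

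**Figure D3:**
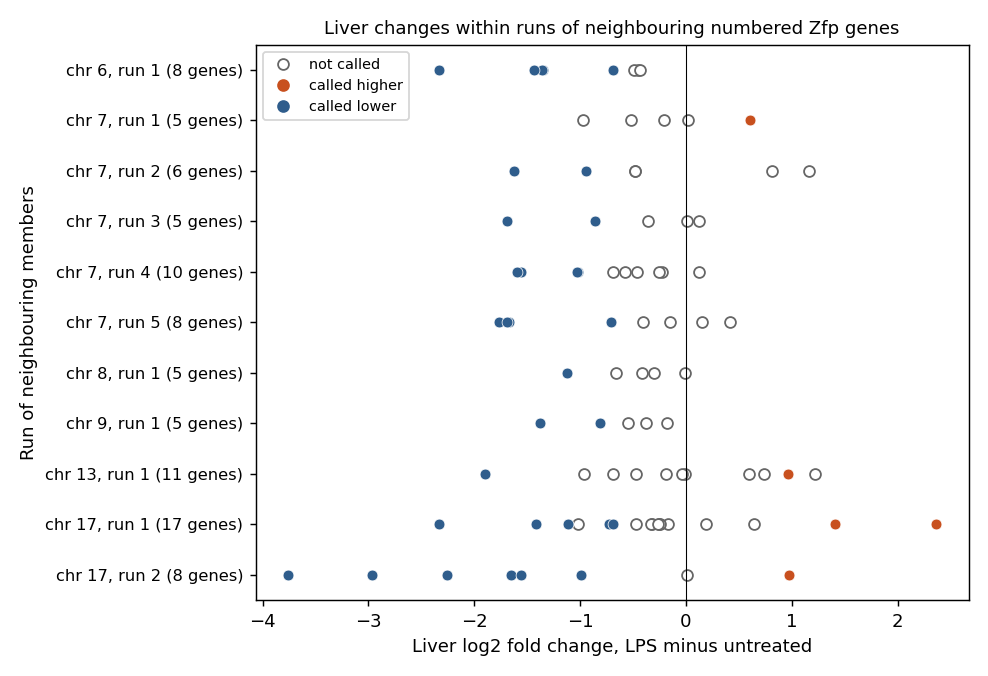
Liver log2 fold change (LPS minus untreated, x axis) of each member in the 11 runs of neighbouring numbered Zfp genes (rows, with the chromosome and number of genes); orange points were called higher, blue points called lower, and open points not called. The second run of chromosome 17 reaches from -3.76 to 0.98 and the run of chromosome 6 lies wholly below 0.

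Members with and without the KRAB pattern had similar medians in liver, and the difference between them was not tested. Of 116 members with the KRAB pattern 9 (7.76%) were called higher and 41 (35.3%) lower with a median log2 fold change of -0.42, and of 107 without it 18 (16.8%) were called higher and 37 (34.6%) lower with a median of -0.44. By number of fingers, the medians were -0.60 for 36 members with 0 to 4 fingers, -0.42 for 67 with 5 to 9, -0.32 for 74 with 10 to 14 and -0.42 for 46 with 15 to 36. Across members the liver log2 fold change had a Pearson r of 0.046 with the number of fingers (n = 223) and of 0.23 with the mean level (n = 225), as a description over genes that share libraries. Values for other zinc finger families, none tested as a group, stand beside 23.3% higher and 22.1% lower over all genes tested. Zbtb genes, which pair fingers with a BTB domain, had 3 of 37 higher and 13 lower, Zkscan genes 1 of 9 higher and 6 lower, and Zscan genes 0 of 8 higher and 5 lower. Klf genes had 3 of 13 higher and 6 lower, and the CCCH-type Zc3h genes 4 of 15 higher and 4 lower.

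Of 22 cofactors of KRAB and other zinc finger repressors tested in liver, 22.7% (5) were called higher and 27.3% (6) lower, near the 23.3% and 22.1% of all genes tested (2 and 9 with library totals). Trim28, the KRAB corepressor, averaged 36.7 ± 6.6 CPM in LPS livers and 44.3 ± 16.1 CPM in untreated livers (SD, n = 3 each), and Setdb1, its histone methyltransferase partner, 18.4 ± 4.8 and 20.4 ± 0.39 CPM; neither was called (adjusted p = 0.434 and adjusted p = 0.579). Resf1, a retroelement silencing factor, had 101, 88.4 and 79.9 CPM in LPS livers, against 15.8, 15.6 and 13.7 CPM in untreated livers. That is the largest rise among the cofactors, with a log2 fold change of 2.58 ± 0.18 (SE) and adjusted p = 1.47e-05. Morc3, a further silencing ATPase, changed by 1.41 ± 0.29 (SE, adjusted p = 0.00487). Mphosph8, a subunit of the HUSH silencing complex, had 3.45, 3.77 and 3.54 CPM in LPS livers, against 13.1, 9.92 and 11.03 CPM in untreated livers (log2 change -1.66 ± 0.21 SE, adjusted p = 0.000411). The heterochromatin proteins Cbx3 (-1.29 ± 0.21 SE, adjusted p = 0.00149) and Cbx5 (-1.07 ± 0.18 SE, adjusted p = 0.00182) were also called lower, as were Sumo2, Atf7ip and the HUSH subunit Fam208a. Morc2a, Ehmt2 and Hdac1 were the other cofactors called higher.

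In macrophages the hairpin against Gm26917 was accompanied by fewer calls among members than among genes at large. Of the 225 members 15 were called higher, which is 6.67%, and 12 lower, which is 5.33%, while 12.6% of the 12876 genes tested were called higher and 11.1% lower (23.7% in either direction). The median log2 fold change (shGm26917 minus shNC) was 0.037 for members and -0.001 for all genes tested. Groups did not overlap for 40.4% of members (46 higher and 45 lower) and 45.9% of all genes tested (24.2% higher and 21.7% lower). Between the members' quartiles of level, 5.72 to 24.6 CPM, 6.19% of 113 members were called higher and 4.42% lower, with a median of 0.035, and of the 2805 other genes 16.7% were called higher and 6.13% lower, with a median of 0.14. With library totals 43 members were called higher and 4 lower with a median of 0.33, and the median of all genes tested moved to 0.29, with 24.3% called higher and 6.17% lower. The members' median was 0.038 above that of all genes tested with TMM and 0.041 above it with library totals. Members took 0.481% to 0.516% of all counts with shGm26917 and 0.401% to 0.449% with shNC, which did not overlap. On the TMM scale their summed level was 4676, 4605 and 4348 CPM with shGm26917, against 4694, 4918 and 4654 CPM with shNC, which did overlap.

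The macrophage counts depended on single libraries, for members as for all genes tested. Without shNC replicate 2, which stood apart from its group, 27 of the 225 members were called higher and 30 lower, beside 20.5% and 19.1% of all genes tested. Without shNC replicate 1 the counts were 12 and 9, beside 7.86% and 8.15% of all genes. Without shNC replicate 3 they were 6 and 5, beside 6.61% and 6.03%. Leaving out shGm26917 replicates gave 5 higher and 5 lower without replicate 1, 3 and 1 without replicate 2, and 5 and 1 without replicate 3. The shares over all genes were then 5.5% and 4.61%, 3.62% and 2.72%, and 4.32% and 3.07%, in that order. Zfp467 shows how far shNC replicate 2 was from the others, with 18.1, 26.9 and 20.2 CPM with shGm26917, against 8.91, 34.5 and 4.39 CPM with shNC and no call (adjusted p = 0.664). The groups overlapped there, since shNC replicate 2 was above every other library.

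Rises with shGm26917 were led by a member of a chromatin complex. Zfp532, which works with Zfp592, Zfp687 and Zmynd8, had 8.04, 3.83 and 5.33 CPM with shGm26917, against 1.68, 0.946 and 0.945 CPM with shNC. Every shGm26917 library was above every shNC library, 4.80-fold on average, with a log2 fold change of 2.26 ± 0.39 (SE) and adjusted p = 0.0109. Its partners were not called: Zfp592 changed by -0.32 ± 0.11 (SE, adjusted p = 0.0748) and Zfp687 by -0.43 ± 0.30 (SE, adjusted p = 0.331). Zfp704 had 42.2, 41.5 and 49.5 CPM with shGm26917, against 22.04, 9.12 and 13.5 CPM with shNC, a change of 1.58 ± 0.31 (SE) with adjusted p = 0.0151. Zfp503 had 15.02, 25.1 and 16.6 CPM with shGm26917, against 6.03, 10.6 and 4.93 CPM with shNC, a change of 1.39 ± 0.34 (SE) with adjusted p = 0.0297. Its relative Zfp703 had 116, 109.7 and 93.5 CPM with shGm26917, against 51.8, 66.5 and 58.7 CPM with shNC, a change of 0.85 ± 0.14 (SE) with adjusted p = 0.00974. In these genes the groups did not overlap, and exons of Zfp532, Zfp703 and Zfp704 overlap transcripts on the other strand. Zfp692, also known as AREBP and described as a repressor of gluconeogenic promoters, had 11.2, 15.3 and 12.3 CPM with shGm26917, against 6.57, 6.42 and 3.78 CPM with shNC (log2 change 1.21 ± 0.26 SE, adjusted p = 0.02).

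Of the KRAB genes on chromosome 2, 3 with near-identical coding starts were called higher. Zfp971 (chr2:178023284-178034022, plus strand), Zfp970 (chr2:177464733-177478129, plus strand) and Zfp931 (chr2:178067695-178078476, minus strand) are alike over the first 120 coding bases, which are shown from GENCODE M21 because reads from such stretches may not be told apart. Capitals mark bases that differ from Zfp971.
Zfp971: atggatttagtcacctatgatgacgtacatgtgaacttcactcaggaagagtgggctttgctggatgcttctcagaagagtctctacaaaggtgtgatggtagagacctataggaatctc
Zfp970: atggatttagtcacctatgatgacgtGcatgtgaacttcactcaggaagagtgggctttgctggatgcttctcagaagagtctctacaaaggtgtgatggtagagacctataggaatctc
Zfp931: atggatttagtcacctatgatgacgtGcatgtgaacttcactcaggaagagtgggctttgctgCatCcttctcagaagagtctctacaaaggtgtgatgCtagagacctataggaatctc
Over these 120 bases Zfp970 was 99.2% identical to Zfp971, with 1 difference, and Zfp931 96.7%, with 4. Zfp971 had 15.8, 17.4 and 17.5 CPM with shGm26917, against 5.49, 6.15 and 5.40 CPM with shNC. The groups were far apart, and the log2 fold change was 1.57 ± 0.14 (SE) with adjusted p = 0.00258. Zfp931 had 6.26, 6.30 and 6.92 CPM with shGm26917, against 3.62, 1.28 and 1.82 CPM with shNC (log2 change 1.53 ± 0.38 SE, adjusted p = 0.0315). Zfp970 had 5.75, 6.68 and 4.14 CPM with shGm26917, against 2.48, 1.89 and 2.63 CPM with shNC (log2 change 1.24 ± 0.27 SE, adjusted p = 0.0217). Groups did not overlap for either gene. Of its 50-base windows, Zfp971 shares 40.0% with other genes, Zfp970 52.2% and Zfp931 16.7%. The genes that share the most windows with them are Gm14288, Gm14440 and Zfp970, in that order. The 3 values can thus not be taken as independent. The other rises of the first 10 were in Zfp976 (1.04 ± 0.30 SE, adjusted p = 0.0466), Zfp157 (0.95 ± 0.21 SE, adjusted p = 0.0204) and Zfp938 (0.91 ± 0.27 SE, adjusted p = 0.04996), all KRAB genes. Below these came Zfp706 (0.60 ± 0.10 SE, adjusted p = 0.011), a small protein studied in embryonic stem cells, and Zfp326 (0.67 ± 0.15 SE, adjusted p = 0.0212), which links RNA polymerase II to splicing.

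Falls with shGm26917 were led by Zfp281, a repressor of the pluripotency programme of embryonic stem cells. Zfp281 had 39.7, 30.5 and 26.3 CPM with shGm26917, against 73.96, 170.3 and 91.1 CPM with shNC. Its groups did not overlap, shNC replicate 2 was the highest library, and the log2 fold change was -1.80 ± 0.34 (SE) with adjusted p = 0.0137. Zfp719, a KRAB gene, had 17.8, 15.4 and 16.3 CPM with shGm26917, against 46.4, 36.02 and 43.8 CPM with shNC, a change of -1.35 ± 0.14 (SE) with adjusted p = 0.00334. Its neighbour Zfp658, whose human counterpart responds to zinc, had 15.3, 11.2 and 14.8 CPM with shGm26917, against 24.4, 21.6 and 28.6 CPM with shNC (log2 change -0.85 ± 0.18 SE, adjusted p = 0.0194). Both genes lie within chr7:43562256-43593235, and their groups were apart. Zfp948 had 7.69, 7.39 and 5.05 CPM with shGm26917, against 13.2, 12.2 and 15.5 CPM with shNC (log2 change -1.02 ± 0.21 SE, adjusted p = 0.0186). Zfp143 had 21.1, 18.6 and 17.8 CPM with shGm26917, against 27.1, 32.8 and 35.7 CPM with shNC (log2 change -0.73 ± 0.15 SE, adjusted p = 0.0168). Zfp609, which acts with the cohesin loader Nipbl and the Integrator complex, had 59.1, 50.1 and 40.8 CPM with shGm26917, against 81.3, 77.7 and 90.00 CPM with shNC (log2 change -0.73 ± 0.16 SE, adjusted p = 0.0199). In each of these the highest shGm26917 library was below the lowest shNC library. Zfp207 had 148, 141 and 148 CPM with shGm26917, against 201, 178 and 235 CPM with shNC (log2 change -0.49 ± 0.14 SE, adjusted p = 0.042). The remaining falls of the first 10 were in Zfp213 (-0.69 ± 0.18 SE, adjusted p = 0.0361), Zfp617 (-0.60 ± 0.12 SE, adjusted p = 0.0182) and Zfp513 (-0.56 ± 0.097 SE, adjusted p = 0.011). Zfp617 shares 40.8% of its windows with other genes, most of all Gm18180.

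**Figure D4:**
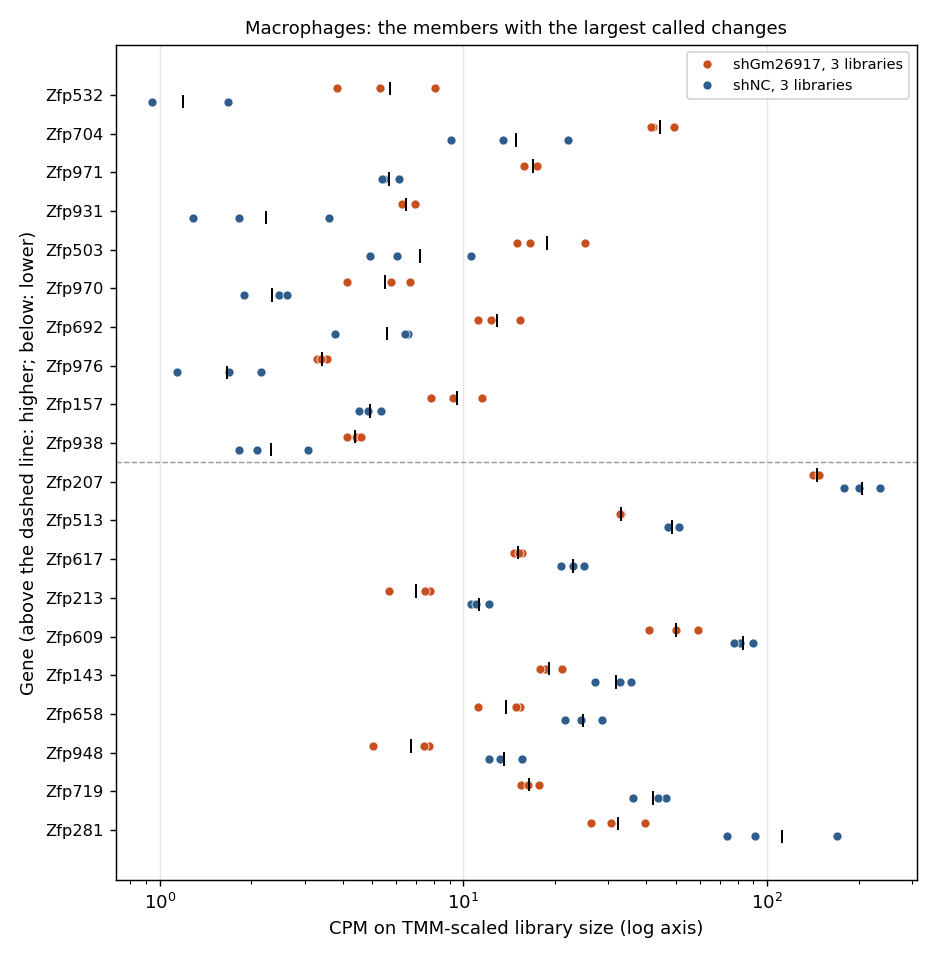
Level of the 10 members with the largest called rises (above the dashed line) and the 10 with the largest called falls (below it) in each macrophage library, in CPM on TMM-scaled library sizes (x axis, log scale); orange points are the 3 shGm26917 libraries, blue points the 3 shNC libraries, and black ticks the group means. Groups do not overlap for any gene shown, and Zfp281 in shNC cells reaches from 74.0 to 170 CPM.

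Of these calls, those of Zfp532, Zfp971 and Zfp719 were kept in each of 13 alternative fits, and the others depended on the libraries used. Zfp281, Zfp143 and Zfp706 lost their call when shGm26917 replicate 2 or 3 was left out, Zfp948 and Zfp609 also without shNC replicate 3, and Zfp703 only without shGm26917 replicate 2. Zfp692, Zfp617 and Zfp513 lost it when any shGm26917 library was left out, and Zfp704, Zfp931, Zfp658 and Zfp326 when any shGm26917 library or shNC replicate 3 was left out. Zfp157 lost it without shGm26917 replicate 1 or 2 or shNC replicate 3, and Zfp970 without these or shNC replicate 1. Among the fits that left out a library, Zfp503, Zfp976, Zfp207, Zfp213, Zfp410 and Zfp800 kept it only without shNC replicate 2, and Zfp938 only without shNC replicate 1. Their log2 fold changes over the fits that left out a library ranged from 1.31 to 1.95 for Zfp704, from 1.24 to 2.04 for Zfp931, from -2.04 to -1.37 for Zfp281 and from -0.86 to -0.65 for Zfp143. No member's call turned round under any alternative in either comparison. With library totals all 15 rises were kept and 4 of the 12 falls.

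Members with and without the KRAB pattern had medians on opposite sides of 0 in macrophages on the TMM scale: 8 of 116 with it were called higher and 4 lower, with a median of 0.14, and 7 of 107 without it were called higher and 8 lower, with a median of -0.12. With library totals the medians were 0.43 and 0.17, and relative to the median of all genes tested they were 0.142 and -0.12 with TMM and 0.141 and -0.122 with library totals. The difference between members with and without the pattern was not tested. Lower members by level had the higher fold changes in macrophages, with a Pearson r of -0.30 and a Spearman rho of -0.38 between log2 fold change and mean level over the 225 members, which share libraries. Among cofactors none of 24 was called higher and 4 (16.7%) were called lower, beside 12.6% higher and 11.1% lower over all genes tested. The 4 were Uhrf1 (-1.20 ± 0.35 SE, adjusted p = 0.0488), Resf1 (-0.81 ± 0.22 SE, adjusted p = 0.042), Hdac1 (-0.59 ± 0.15 SE, adjusted p = 0.0319) and Cbx1 (-0.46 ± 0.13 SE, adjusted p = 0.0455). With library totals, which moved the median of all genes tested up by 0.29, 5 cofactors (20.8%) were called higher and none lower, beside 24.3% and 6.17% of all genes tested. The cofactors' median was 0.047 above that of all genes with TMM and 0.045 above it with library totals. Trim28 averaged 119.7 ± 1.9 CPM with shGm26917 and 116.9 ± 0.99 CPM with shNC (SD, n = 3 each), with adjusted p = 0.817. Values for other zinc finger families, none tested as a group, stand beside the same 12.6% higher and 11.1% lower over all genes tested. Zbtb genes had 2 of 39 higher and 6 lower, Zkscan genes 3 of 9 higher and 0 lower, and Klf genes 2 of 12 higher and 0 lower. Zscan genes had 0 of 9 higher and 1 lower, and Zc3h genes 0 of 15 higher and 5 lower.

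Called in both comparisons were 16 members, 7.11% of the 225, and 108 were called in neither. These 16 are 15.1% of the members' liver calls and 59.3% of their macrophage calls. Of the 9625 other genes with the same count minimum 11.9% were called in both, which are 26.7% of their liver calls and 48.9% of their macrophage calls. Calls in both went in opposite directions for 12 of these 16 members and for 879 of these 1143 other genes. Higher after LPS in liver and lower with shGm26917 in macrophages were 6: Zfp281, Zfp143, Zfp410, Zfp513, Zfp719 and Zfp800. Lower in liver and higher in macrophages were another 6: Zfp532, Zfp704, Zfp971, Zfp931, Zfp503 and Zfp157. Zfp692 and Zfp976 were higher in both, and Zfp609 and Zfp617 were lower in both. Zfp281 had 70.7, 55.2 and 52.02 CPM in LPS livers, against 41.9, 36.8 and 20.8 CPM in untreated livers, a log2 fold change of 0.84 ± 0.27 (SE, adjusted p = 0.0318). Zfp704 had 3.45, 4.16 and 3.61 CPM in LPS livers, against 11.5, 6.77 and 12.4 CPM in untreated livers, a change of -1.45 ± 0.27 (SE, adjusted p = 0.00326). Zfp532 had 1.00, 1.22 and 0.759 CPM in LPS livers, against 3.10, 2.23 and 2.78 CPM in untreated livers, a change of -1.43 ± 0.33 (SE, adjusted p = 0.00871). In liver these groups did not overlap either, and the order is the reverse of that with the hairpin. Zfp410, the activator of the chromatin remodeller gene Chd4, changed by 0.69 ± 0.17 (SE, adjusted p = 0.011) in liver and by -0.41 ± 0.11 (SE, adjusted p = 0.0405) in macrophages, while Chd4 itself was at -0.16 ± 0.20 (SE, adjusted p = 0.529) and 0.17 ± 0.13 (SE, adjusted p = 0.38). Zfp692 changed by 0.96 ± 0.31 (SE, adjusted p = 0.0327) and Zfp609 by -1.06 ± 0.27 (SE, adjusted p = 0.0133) in liver. The liver calls of Zfp281, Zfp410, Zfp513, Zfp719, Zfp800 and Zfp692 were lost with library totals. Of the 6 fits that left out a liver library, Zfp931, Zfp719 and Zfp800 lost their call in 5, Zfp281 and Zfp617 in 4, Zfp513 and Zfp692 in 3, Zfp971 in 2, and Zfp157 and Zfp609 in 1.

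Across the 225 members the liver and macrophage log2 fold changes had a Pearson r of -0.31 and a Spearman rho of -0.32, and across the 9625 other genes with the same count minimum r was -0.42 and rho -0.27. Members thus shared the inverse relation that genes at large showed between the comparisons, which have no library in common. The comparisons differ in tissue, in treatment and in their controls, and whether their effects on a gene differ was not tested.

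**Figure D5:**
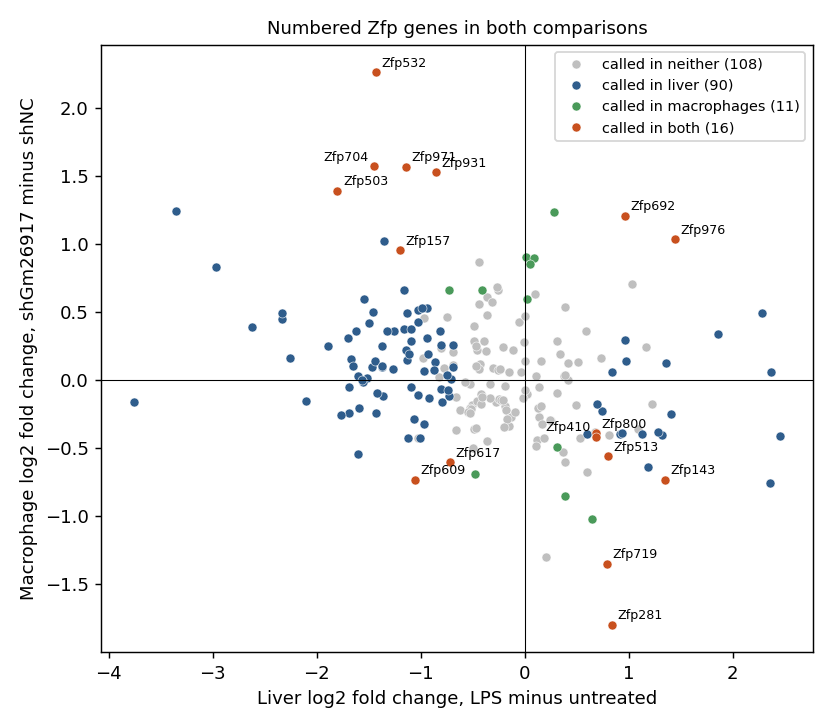
Log2 fold change of each of the 225 members in liver (LPS minus untreated, x axis) against that in macrophages (shGm26917 minus shNC, y axis); points are coloured by the comparison in which the member was called, and the 16 called in both are named. The named genes lie mostly in the upper left and lower right quadrants, with 6 in each, and with 2 in each of the other quadrants.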

How the data were processed

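Poly(A) RNA was sequenced in 12 libraries, 3 in each of 4 groups, which the titles and treatments in the labels define. The authors deposited raw counts: each library has its own table of reads per Ensembl gene. Alignment with STAR to mm10 and counting with featureCounts 1.6.3 are named in the submitters' processing notes; the annotation, multi-mapping reads and strand were not described in the sources used here. The macrophage headers carry the word combined, and what was combined is not explained. Symbols came from a table of gene names (49326 of 49585 liver IDs and 55141 of 55401 macrophage IDs matched), and coordinates and coding sequences from GENCODE M21 (GRCm38).

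Each tissue was fitted alone in edgeR 4.0.16 under R 4.3.3, with group as the sole factor: filterByExpr, TMM factors, glmQLFit and glmQLFTest (2-sided), and Benjamini-Hochberg adjustment over all genes tested. SE is the absolute log2 fold change over the square root of F. The fit was tested on simulated data, and a member that was not called may still have changed. Alternatives were library totals, relative log expression factors, DESeq2 1.42.0, other filters (none, or 1 CPM in 3 libraries), a replicate block, all 12 libraries in 1 fit, each library left out, other count minimums, and leaving out members with shared sequence or overlapping exons, the last 2 being chosen after seeing the data.

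Named were the 10 largest called rises and falls in each comparison, every member called in both, and the 3 nearest each side of the count minimum. Of the 5 most abundant members per tissue and the members with a described role, only a part is named. Neighbours in runs and cofactors are named beside them. The members and lists were chosen with earlier results of these data known. Depth of 15605311 to 20913964 counts limits precision for members of a few CPM.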

Additional observations from a re-analysis of the deposited data

How the results depend on the processing

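Most values for single named members kept their direction and their side of the threshold: in liver 843 of the recomputed values did, 48 lost a call and 18 gained one, and in macrophages 777 did, 109 lost a call and 24 gained one, with none reversed. Of the calls in liver, 12 of 27 rises and 51 of 79 falls were kept in every alternative fit, and in macrophages 2 of 15 rises and 1 of 12 falls. Library totals moved the liver counts to 12 higher and 124 lower (median -0.864) and the macrophage counts to 43 higher and 4 lower (median 0.331). The liver median was -0.512 with all 12 libraries in 1 fit and -0.331 with at least 20 counts in each library. Leaving out each liver library in turn gave 19 to 24 higher, 55 to 79 lower and medians of -0.497 to -0.378. In macrophages leaving out each library gave 3 to 27 higher, 1 to 30 lower and medians of -0.009 to 0.061, the highest counts being without shNC replicate 2. Members called lower in macrophages numbered 22 with DESeq2, 7 with all 12 libraries in 1 fit and 6 without members that overlap other genes. The macrophage median was 0.083 over every numbered Zfp gene tested and with a mean of at least 10 counts, and -0.02 with at least 20 counts in each library. The cause of these shifts was not tested. With the replicate block the counts were 26 higher and 76 lower in liver (median -0.442) and 12 higher and 8 lower in macrophages (median 0.060). Same-numbered libraries deviated with correlations of 0.118, 0.0498 and -0.0766 in liver and -0.0407, 0.240 and 0.178 in macrophages. Libraries of different number gave -0.186 to 0.123 in liver and -0.236 to 0.157 in macrophages. So few values cannot show whether same-numbered libraries were paired. Over all genes tested, the library totals and leaving out a library also moved the counts by over 1.5 times: in liver 1943 higher and 5305 lower with library totals, and in macrophages 3135 and 794, down to 479 and 360 without shGm26917 replicate 2 and up to 2715 and 2521 without shNC replicate 2. The depth leaves members of about 1 CPM with few counts, where small changes were not detectable.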
